A study of Mus musculus with 8 samples.

Results

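Bckdhb encodes the E1 beta subunit of the branched-chain keto acid dehydrogenase, and its lower signal in lenses of C57BL/6J mice than of 129SvJae mice prompted a look at the enzymes around it. The set was every probe set with a single gene symbol on the Affymetrix MG-U74Av2 chip for 9 genes: Bckdhb, Bckdha, Dld and Bcat1 of branched-chain amino acid breakdown, and Cs, Idh3g, Fh1, Mdh1 and Mdh2 of the citrate cycle and malate metabolism. It held 10 of the 10833 single-symbol probe sets, with 2 for Idh3g and 1 for each other gene. All 10 were among the 10078 probe sets tested, the probe sets whose arrays averaged over 50 in 1 or more of the groups. The choice started from measured values: Bckdhb was chosen by its strain ratio on these arrays, and the other 8 genes by their place in its pathways.

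Lenses of 10-day-old mice of both sexes were pooled, and the RNA of each sample was hybridised to 1 chip. There were 4 groups of 2 arrays: C57BL/6J α3Cx46 KO, C57BL/6J wild type (WT), 129SvJae α3Cx46 KO and 129SvJae WT. The KO mice lack connexin 46, the lens fiber gap junction protein encoded by Gja3, while WT lenses of the same strain have it. No source used here says that the 2 pools of a group came from separate animals, so each p-value is set against a spread between samples that could be technical only. In pooled whole-lens RNA, fewer cells of a type and less RNA per cell cannot be told apart.

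Leucine, isoleucine and valine are first transaminated by a branched-chain aminotransferase, cytosolic Bcat1 or mitochondrial Bcat2. The resulting keto acids are then decarboxylated in mitochondria by a complex of E1 (Bckdha with Bckdhb), E2 (Dbt) and E3 (Dld), and its products feed the citrate cycle as acetyl-CoA and succinyl-CoA. E3 is shared with the pyruvate and 2-oxoglutarate dehydrogenases and with glycine cleavage. In the lens, mitochondria are held by the epithelium and the outer fibers, and maturing fibers lose them.

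The genes of both E1 subunits are shown first, because these subunits work as 1 component and the description turns on the signals of both. Each line gives the 250 bases upstream of an annotated transcript start from RefSeq (GRCm38.p6), written 5′ to 3′ on the strand of the gene, with capitals for matches on either strand to the CCAAT box, to the GC box, spelled GGGCGG, or to the motif of the factor YY1, spelled AAGATGGC. The Bckdhb window is chr9:83924887-83925136 on the plus strand, and the Bckdha window is chr7:25658762-25659011 on the minus strand.
Bckdhb: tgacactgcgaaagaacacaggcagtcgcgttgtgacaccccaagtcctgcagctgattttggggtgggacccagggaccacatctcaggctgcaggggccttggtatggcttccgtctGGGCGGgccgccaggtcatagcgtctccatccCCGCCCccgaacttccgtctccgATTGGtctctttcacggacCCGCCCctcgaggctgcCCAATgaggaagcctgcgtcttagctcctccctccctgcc
Bckdha: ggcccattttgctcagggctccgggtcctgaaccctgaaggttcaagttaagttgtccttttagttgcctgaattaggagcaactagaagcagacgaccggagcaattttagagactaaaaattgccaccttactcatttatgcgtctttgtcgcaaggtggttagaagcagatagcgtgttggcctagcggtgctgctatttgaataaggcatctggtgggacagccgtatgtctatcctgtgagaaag
The Bckdhb window printed above held 2 CCAAT matches, with first bases 76 and 40 bases before the start, and 3 GGGCGG matches, at 131, 99 and 57 bases before it. No match overlapped another. Its GC content was 63.2%, against a median of 52.4% over all 32851 mouse windows of that length. A second annotated Bckdhb start, whose window is not printed, had a GC content of 36.4% and none of the 3 motifs. The Bckdha window had a GC content of 47.6% and likewise none of them. Of all windows, 33.8% held the CCAAT box, 32.7% the GC box and 1.56% the YY1 motif. Over the 11 windows of the 9 genes, the motifs were found in 6, 5 and 1 windows in the same order. These letters describe the C57BL/6J reference, no 129SvJae sequence was used, and a match is a description of the letters, not of binding.

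Bckdhb had signals of 487 and 563 in C57BL/6J KO lenses and 469 and 657 in C57BL/6J WT lenses, against 1393 and 1750.1 in 129SvJae KO lenses and 1623 and 1159 in 129SvJae WT lenses. All 4 C57BL/6J arrays were below all 4 129SvJae arrays, and the gap lay between 657 and 1159. The group means were 525 ± 53.5 in C57BL/6J KO, 563 ± 133 in C57BL/6J WT, 1572 ± 253 in 129SvJae KO and 1391 ± 328 in 129SvJae WT (SD, n = 2 each). The mean over C57BL/6J arrays was 544, against 1481 over 129SvJae arrays. On the log2 scale the ratio of C57BL/6J over 129SvJae was -1.44 (SE 0.19), with -1.58 in KO lenses and -1.31 in WT lenses (SE 0.27 each). This contrast is the reason Bckdhb was looked at, so its values are a description, and later counts that include Bckdhb are no test of it. Within the first scanning session, which held 1 array of each group, the ratio was -1.65, and the KO arrays of the second session gave -1.64.

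**Figure D1:**
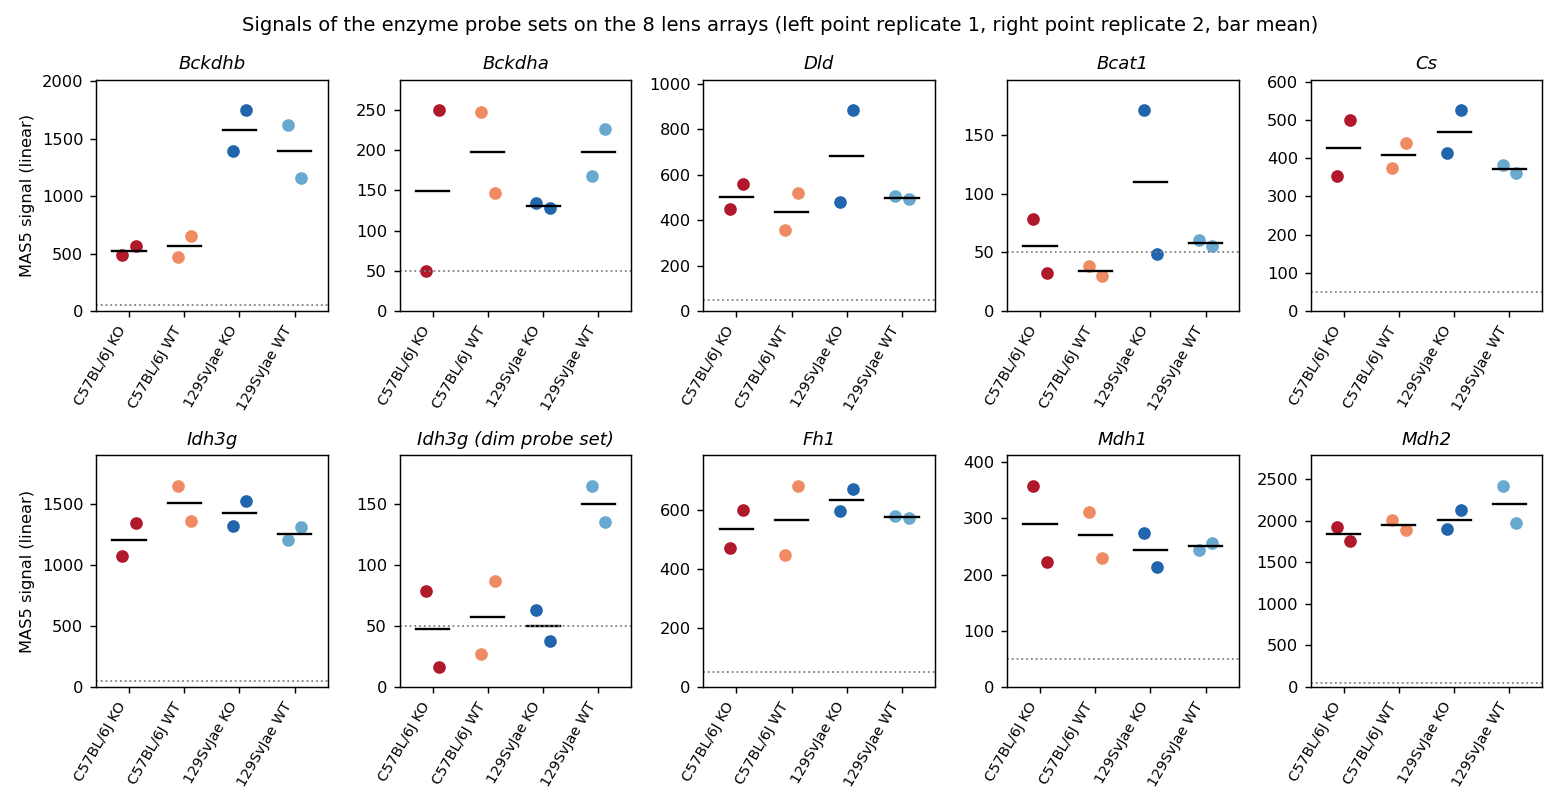
MAS5 signal (linear scale, y axis from 0) of each of the 10 probe sets, with the 2 arrays of each group as points, group means as bars and a dotted line at 50. Only for Bckdhb do the 4 C57BL/6J arrays, at 469 to 657, lie apart from the 4 129SvJae arrays, at 1159 to 1750.1.

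The arrays of the partners of Bckdhb overlapped between strains. Bckdha, the E1 alpha subunit, had signals of 49.3 and 249.6 in C57BL/6J KO lenses and 247.5 and 147 in C57BL/6J WT lenses, against 134 and 128 in 129SvJae KO lenses and 168 and 226.5 in 129SvJae WT lenses. The lowest and the highest Bckdha signal were both from C57BL/6J KO lenses, and the strains overlapped. Its log2 ratio of C57BL/6J over 129SvJae was -0.14 (SE 0.47, 95% interval -1.14 to 0.87, adjusted p = 0.976 by limma). Without the first C57BL/6J KO array that ratio was 0.45. The 2 scanning sessions gave KO lens ratios of -1.44 and 0.97 for Bckdha, in opposite directions.

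Dld, the E3 subunit, had signals of 447 and 558 in C57BL/6J KO lenses and 354 and 521 in C57BL/6J WT lenses, against 478 and 884 in 129SvJae KO lenses and 506 and 492 in 129SvJae WT lenses. The highest array was a 129SvJae KO array and the lowest a C57BL/6J WT array, with overlap in between. The log2 ratio was -0.30 (SE 0.24, 95% interval -0.81 to 0.22, adjusted p = 0.908 by limma). Bcat1, the cytosolic aminotransferase, was dim, with 78.5 and 32.7 in C57BL/6J KO lenses and 38.2 and 30.2 in C57BL/6J WT lenses, against 171 and 48.9 in 129SvJae KO lenses and 60.4 and 55.9 in 129SvJae WT lenses. Its C57BL/6J signals were mostly below 50 and overlapped those of 129SvJae through 1 KO array. The log2 ratio was -0.81 with a wide interval (SE 0.61, -2.14 to 0.51, adjusted p = 0.896 by limma), so a difference of the size of that of Bckdhb lay within it.

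The intervals of the citrate cycle and malate enzymes all held 0. Cs, citrate synthase, which joins acetyl-CoA to oxaloacetate, had 355 and 501 in C57BL/6J KO lenses and 375 and 440.5 in C57BL/6J WT lenses, against 413 and 526 in 129SvJae KO lenses and 383 and 362 in 129SvJae WT lenses. Its arrays overlapped, with a log2 ratio of -0.01 (SE 0.22, 95% interval -0.48 to 0.46, adjusted p = 0.997 by limma). Fh1, fumarate hydratase, had 473 and 599.97 in C57BL/6J KO lenses and 448 and 683 in C57BL/6J WT lenses, against 599 and 673 in 129SvJae KO lenses and 580.4 and 573 in 129SvJae WT lenses. The 129SvJae values lay inside the range of the C57BL/6J values. The log2 ratio of Fh1 was -0.16 (SE 0.20, 95% interval -0.60 to 0.28, adjusted p = 0.951).

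Idh3g encodes a regulatory subunit of the NAD-dependent isocitrate dehydrogenase and had 2 probe sets. The brighter gave 1073 and 1337 in C57BL/6J KO lenses and 1647 and 1356 in C57BL/6J WT lenses, against 1315 and 1522 in 129SvJae KO lenses and 1199 and 1309 in 129SvJae WT lenses. The strains overlapped, and its log2 ratio was 0.01 (SE 0.16, 95% interval -0.34 to 0.35, adjusted p = 0.997). The other probe set of Idh3g had lower signals, 15.9 to 86.8 over the C57BL/6J arrays and 37.2 to 165 over the 129SvJae arrays. Its ratio was lower, at -1.04, with an interval of -2.45 to 0.38 that held the ratio of the brighter one (SE 0.65, adjusted p = 0.856 by limma).

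Of the malate dehydrogenases, Mdh2 acts in the mitochondrial citrate cycle and Mdh1 in the cytosol, where it serves the malate-aspartate shuttle. Mdh2 had 1922 and 1752 in C57BL/6J KO lenses and 2004 and 1885 in C57BL/6J WT lenses, against 1899.8 and 2124 in 129SvJae KO lenses and 2419.9 and 1969 in 129SvJae WT lenses. The arrays overlapped closely, and the log2 ratio of -0.15 had the narrowest interval of the set (SE 0.14, -0.46 to 0.16, adjusted p = 0.931). Mdh1 had 358 and 223 in C57BL/6J KO lenses and 311 and 230.03 in C57BL/6J WT lenses, against 273 and 213 in 129SvJae KO lenses and 244 and 257 in 129SvJae WT lenses. The log2 ratio was 0.16 (SE 0.27, 95% interval -0.42 to 0.75, adjusted p = 0.958), and the strains overlapped.

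With Bckdhb left out as the gene that the contrast chose, 0 of the other 9 probe sets were called between strains by limma at an adjusted p under 0.05 (Benjamini-Hochberg over all 10078 probe sets). Over all probe sets tested 0.367% were called (0.109% lower and 0.258% higher in C57BL/6J), and nothing is read from these shares. None of the 9 had an unadjusted p under 0.05 by limma, which 6.98% of all probe sets tested had. Their log2 ratios were negative for 7 and positive for 2, with a median of -0.15 and a range of -1.04 to 0.16, beside a median of 0.01 and 49.1% negative over all probe sets tested. The methods' t-test on log2 signals called none of the 9 after adjustment and gave none an unadjusted p under 0.05. Averaged over genotypes, none of the 9 met the study's criteria of fold, level and unadjusted p, while Bckdhb did. The paper compared the strains in KO and in WT lenses singly and lists Bckdhb as lower in C57BL/6J in both. Its real-time PCR also gave lower Bckdhb in C57BL/6J in both. In those comparisons no enzyme probe set met the criteria here, Bckdhb included, on log2 or linear signals. At 2 arrays against 2, the criteria thus did not set Bckdhb apart there, and this does not bear on the PCR. Arrays of the strains overlapped for all 9, and did not overlap for 5.57% of all probe sets tested.

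In KO lenses and in WT lenses taken singly, where 2 arrays met 2, none of the other 9 was called, with 0.0893% and 0.0695% called over all probe sets tested. None of the 9 had an unadjusted p under 0.05 by limma in either, against 3.74% of all probe sets tested in KO and 6.47% in WT lenses. With log2 signals in the methods' t-test, 1 of the 9, Bcat1, was under an unadjusted 0.05 in WT lenses but not after adjustment, and none was in KO lenses. The intervals of Bcat1, Bckdha and the dim Idh3g probe set reached below -1.44 in KO and in WT lenses, so at 2 arrays a group a ratio as low as that of Bckdhb lay within the intervals for them. Those of Dld, Cs, Fh1, Mdh1 and Mdh2 and of the bright Idh3g probe set did not.

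**Figure D2:**
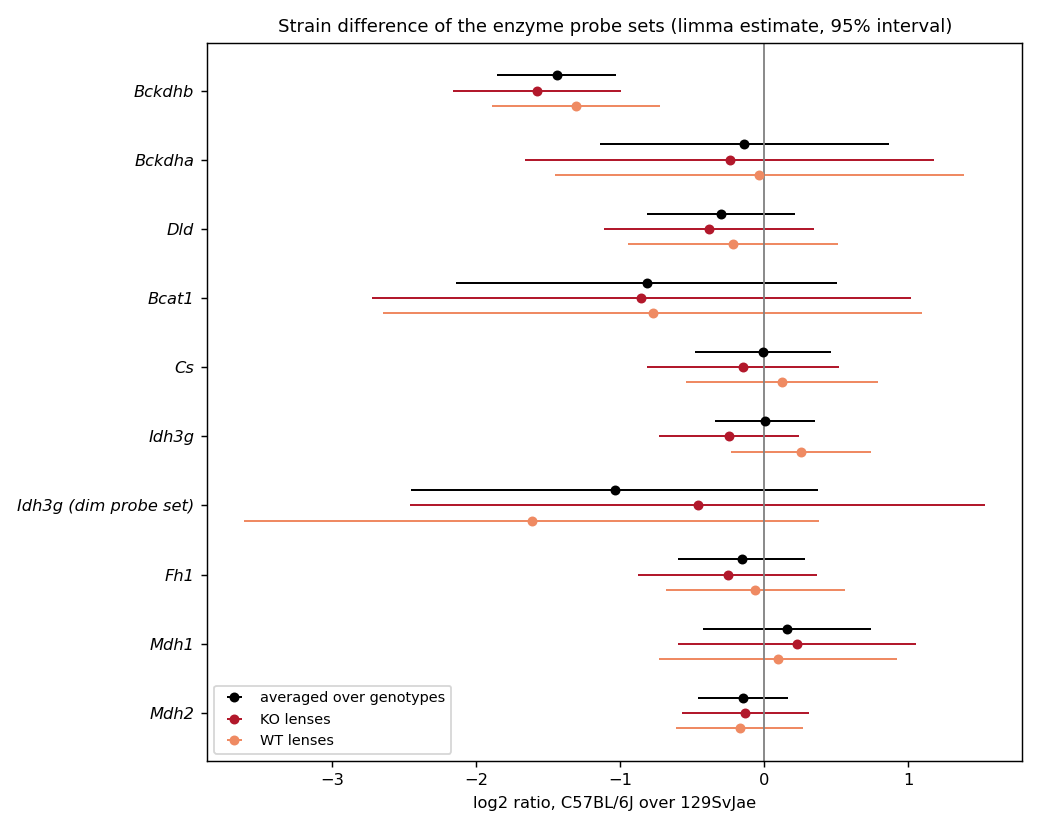
Log2 ratio of C57BL/6J over 129SvJae for each probe set (points, limma estimate; lines, 95% intervals), averaged over genotypes and in KO and WT lenses alone. Bckdhb lies at -1.44, and every other interval crosses 0, widely for Bckdha, Bcat1 and the dim Idh3g probe set.

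Loss of connexin 46 is a comparison that had no part in choosing these genes. Gja3 itself had 448 and 519 in C57BL/6J KO lenses, against 1968 and 3274 in C57BL/6J WT lenses. In 129SvJae lenses Gja3 had 472 and 445 in KO lenses, against 1100.3 and 3381 in WT lenses, so every KO array was below every WT array. Averaged over strains its log2 ratio of KO over WT was -2.23 (SE 0.29, adjusted p = 0.0160 by limma). No enzyme of the set was called.

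Averaged over strains, 0 of the 10 enzyme probe sets were called between KO and WT lenses by limma, with 0.0198% called over all probe sets tested. None had an unadjusted p under 0.05 by limma (3.05% of all probe sets tested) or with log2 signals in the methods' t-test, and no arrays of KO and WT stood apart for any of them, against 2.19% of all probe sets tested. The log2 ratio of KO over WT for Bckdhb was 0.05 (SE 0.19, 95% interval -0.36 to 0.47, adjusted p = 0.998), with -0.08 in C57BL/6J and 0.19 in 129SvJae lenses (SE 0.27 each). Ratios of the others were 0.30 for Dld, 0.19 for Cs, 0.04 for Fh1, 0.01 for Mdh1, -0.10 for Mdh2, -0.07 for the bright Idh3g probe set, 0.62 for Bcat1, -0.68 for Bckdha and -1.04 for the dim Idh3g probe set. All had an adjusted p of 0.998. The median of the 10 was 0.03, beside -0.02 over all probe sets tested.

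Bckdha had the largest ratio among single-probe genes by size, and it rested on few arrays. It had 49.3 and 249.6 in C57BL/6J KO lenses, against 247.5 and 147 in C57BL/6J WT lenses, so the KO arrays lay on both sides of the WT arrays. Its ratio over strains of -0.68 (95% interval -1.68 to 0.33) was -1.26 without the second C57BL/6J KO array and -0.09 without the first. Within C57BL/6J lenses it was -2.33 in the first scanning session and 0.77 in the second.

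None of the 10 was called within C57BL/6J lenses, where 0.00992% of all probe sets were called, nor within 129SvJae lenses or for the interaction of strain and genotype, where 0% were called. None had an unadjusted p under 0.05 by limma in these comparisons, nor with log2 signals in the methods' t-test within strains, while limma gave such a p for 2.31% of all probe sets tested within C57BL/6J, 3.12% within 129SvJae and 2.11% for the interaction. With linear signals that test put the dim Idh3g probe set under an unadjusted 0.05 in 129SvJae lenses, but not after adjustment. The interaction for Bckdhb was -0.27 (SE 0.38, 95% interval -1.10 to 0.56, adjusted p = 1.0). In 129SvJae lenses the median ratio of KO over WT was 0.16 for the 10 and -0.05 for all probe sets tested. Centring the arrays on their medians moved the median over all probe sets to 0.09.

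**Figure D3:**
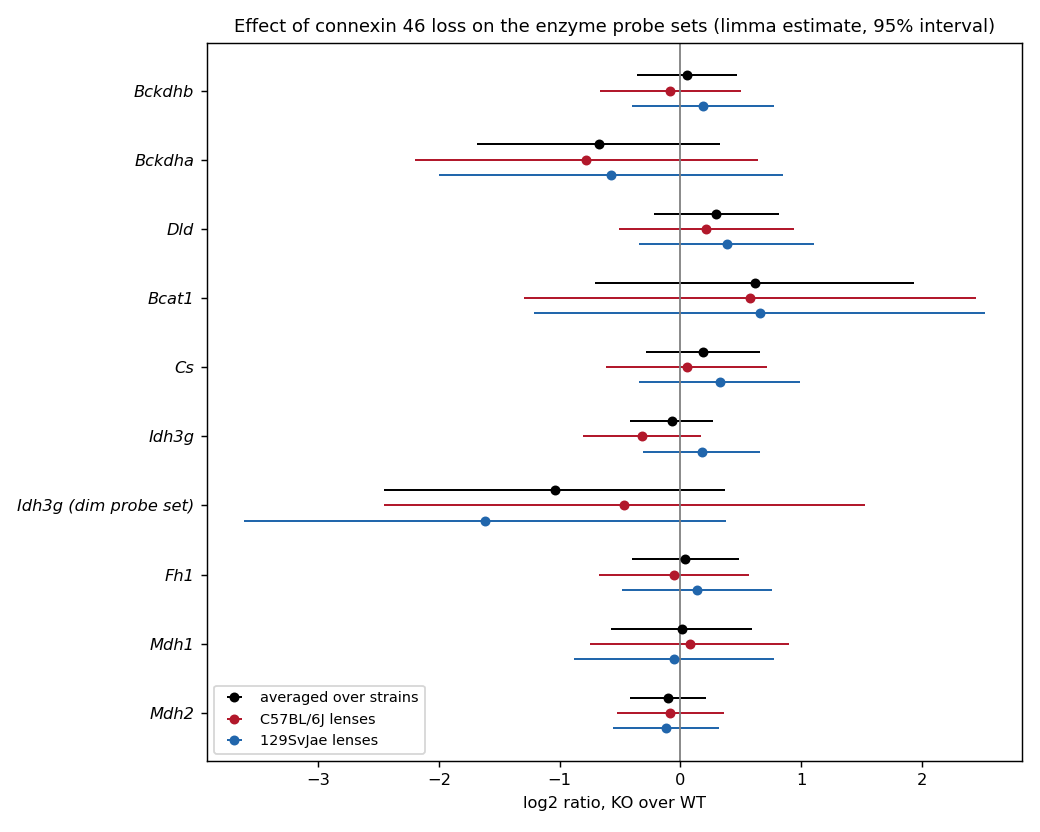
Log2 ratio of KO over WT for each probe set (points, limma estimate; lines, 95% intervals), averaged over strains and in C57BL/6J and 129SvJae lenses alone. Every interval crosses 0, including that of Bckdhb at 0.05 on average.

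The other genes of these pathways were taken from lists. Of 27 further genes of branched-chain amino acid breakdown and uptake, 18 were on the chip and 17 probe sets of 16 genes passed the level of 50. None was called between strains by limma, 1 had an unadjusted p under 0.05, and 10 ratios were above 0 and 7 below, with a median of 0.23. Bcat2, the mitochondrial aminotransferase, had 65.8 and 118.6 in C57BL/6J KO lenses and 22.9 and 155 in C57BL/6J WT lenses, against 186 and 128 in 129SvJae KO lenses and 168 and 251 in 129SvJae WT lenses. Its arrays overlapped, and its log2 ratio was -1.29 (SE 0.55, adjusted p = 0.656). Mmut, the methylmalonyl-CoA mutase that passes valine and isoleucine carbon to succinyl-CoA, had a ratio of 0.95 (SE 0.48, adjusted p = 0.766), and Hsd17b10, a dehydrogenase of isoleucine breakdown, -0.30 (SE 0.17, adjusted p = 0.820). Dbt, the E2 subunit, was below 50 on every array, with group means of 38.6, 28.7, 29.7 and 21.8 in C57BL/6J KO, C57BL/6J WT, 129SvJae KO and 129SvJae WT lenses, and was not tested. Bckdk, the kinase that inactivates E1, chosen after its values were seen, had a ratio of 0.32 (SE 0.20, adjusted p = 0.852).

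Of 14 other citrate cycle genes, 13 were on the chip, and all 13 were tested, as 16 probe sets. None was called, 1 had an unadjusted p under 0.05, and 6 ratios were above 0 and 10 below, with a median of -0.04. Sdhd, a membrane anchor of succinate dehydrogenase, had 893 and 1063 in C57BL/6J KO lenses and 804 and 959 in C57BL/6J WT lenses, against 457 and 726 in 129SvJae KO lenses and 348 and 686 in 129SvJae WT lenses. Every C57BL/6J array was above every 129SvJae array, in the direction opposite to Bckdhb. Strains stood apart in either direction for 5.57% of all probe sets tested. The log2 ratio was 0.80 (SE 0.24, adjusted p = 0.319 by limma). With the scanning session as a block it was 0.95, in a fit where replicate 2 of 129SvJae WT, alone in its session, had no weight. Pcx, pyruvate carboxylase, had a ratio of -0.47 at 1 probe set (SE 0.35, adjusted p = 0.895 by limma) and 0.01 at the other. Idh3b, a partner of Idh3g, had 0.86 (SE 0.69, adjusted p = 0.907 by limma) and was dim, at 18.2 to 105, with 2 arrays under 50.

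Among genes of the pyruvate dehydrogenase and glycine cleavage, which share E3, 8 of 14 were on the chip and gave 9 tested probe sets, none called, 1 with an unadjusted p under 0.05, 3 above 0 and 6 below, with a median of -0.24. The arrays of Gldc, glycine decarboxylase, were 210 to 249.7 in C57BL/6J and 259.6 to 513 in 129SvJae lenses and did not overlap. Its log2 ratio was -0.63 (SE 0.28, adjusted p = 0.700). Pdk3, a kinase of pyruvate dehydrogenase, likewise did not overlap, at -0.53 (SE 0.25, adjusted p = 0.722 by limma). Separation of the strains, as for Gldc and Pdk3, was seen for 5.57% of all probe sets tested, so nothing is read from it. Pdha1, the E1 alpha subunit of pyruvate dehydrogenase, had -0.33 (SE 0.21, adjusted p = 0.867 by limma).

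Of 12 genes of the malate-aspartate and citrate shuttles and their cytosolic partners, 9 were on the chip. Their 9 tested probe sets gave no call, 1 unadjusted p under 0.05, and 2 ratios above 0 and 7 below, with a median of -0.17. Me1, the cytosolic malic enzyme that supplies NADPH, had 368 and 462 in C57BL/6J KO lenses and 451 and 610.2 in C57BL/6J WT lenses, against 258 and 258 in 129SvJae KO lenses and 209 and 230.4 in 129SvJae WT lenses. All C57BL/6J arrays were above all 129SvJae arrays (strains stood apart in either direction for 5.57% of all probe sets tested). The log2 ratio of 0.97 did not pass the threshold (SE 0.23, adjusted p = 0.145 by limma). By its unadjusted criteria the paper lists this gene, as Mod1, as higher in C57BL/6J in WT and in KO lenses. Slc25a1, the citrate carrier, had ratios of -0.91 (SE 0.46, 95% interval -1.91 to 0.09) and -0.01 at its probe sets. Got2, the mitochondrial aspartate aminotransferase, had -1.13 (SE 0.73, 95% interval -2.71 to 0.44) and 0.23. The Got2 probe set at -1.13 was under 50 on 4 arrays. Each interval held the value of the other probe set.

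Genes that mark mitochondrial content (10 of 12 on the chip, 11 tested probe sets) gave no call and no unadjusted p under 0.05. Their ratios were above 0 for 4 and below for 7, with a median of -0.11. The lowest p-values were for the pore proteins Vdac1 (-0.75, SE 0.69) and Vdac3 (-0.19, SE 0.21) and for Tomm20 (-0.70, SE 0.42), a receptor of the import machinery. Vdac1 was dim, at 16.4 to 131, with 6 arrays under 50. Over the 62 probe sets of these lists, the methods' t-test called none after adjustment and gave 5 unadjusted p-values under 0.05 (8.06%, against 7.81% of all probe sets tested). Limma gave 4 (6.45%, against 6.98% of all probe sets tested). In the KO comparison averaged over strains, none of the 62 was called and none had an unadjusted p under 0.05 by limma (3.05% of all probe sets tested), against 1 by the methods' t-test (1.61%, against 3.68% of all probe sets tested).

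**Figure D4:**
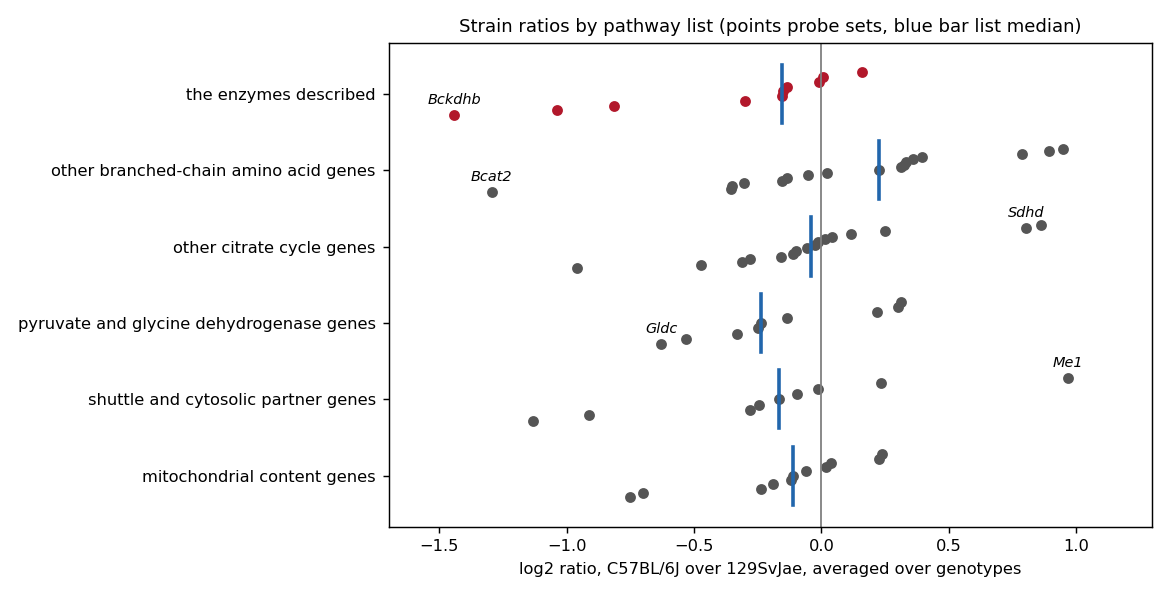
Log2 ratio of C57BL/6J over 129SvJae, averaged over genotypes, for the probe sets of the 9 enzymes (red) and of 5 further lists (gray), with list medians as blue bars and vertical spread only for display. Labels mark Bckdhb and genes with an unadjusted p under 0.05, of which Sdhd and Me1 lie above 0 and Bcat2 and Gldc below.

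The array pattern of Bckdhb was set beside that of 8919 other tested probe sets with a single symbol, by the mean absolute difference of log2 signals, each centred on its own mean over the 8 arrays. The closest were Fam32a at 0.153, 1810058I24Rik at 0.177, F2r, a thrombin receptor, at 0.229, Pgk1, phosphoglycerate kinase of glycolysis, at 0.233, and Ap1g2, a subunit of a clathrin adaptor, at 0.241. Their log2 ratios of C57BL/6J over 129SvJae were -1.38, -1.20, -1.02, -1.12 and -1.01 in that order. The other probe sets of F2r gave -0.12 and 0.16, and those of Fam32a -2.51 and -0.95. Of the enzymes, Dld came nearest to Bckdhb, at 0.571 and rank 764, followed by Fh1 at rank 1619 and Mdh2 at rank 1683, and Bckdha stood at rank 5725. These are descriptions of 8 arrays, and no test is given.

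**Figure D5:**
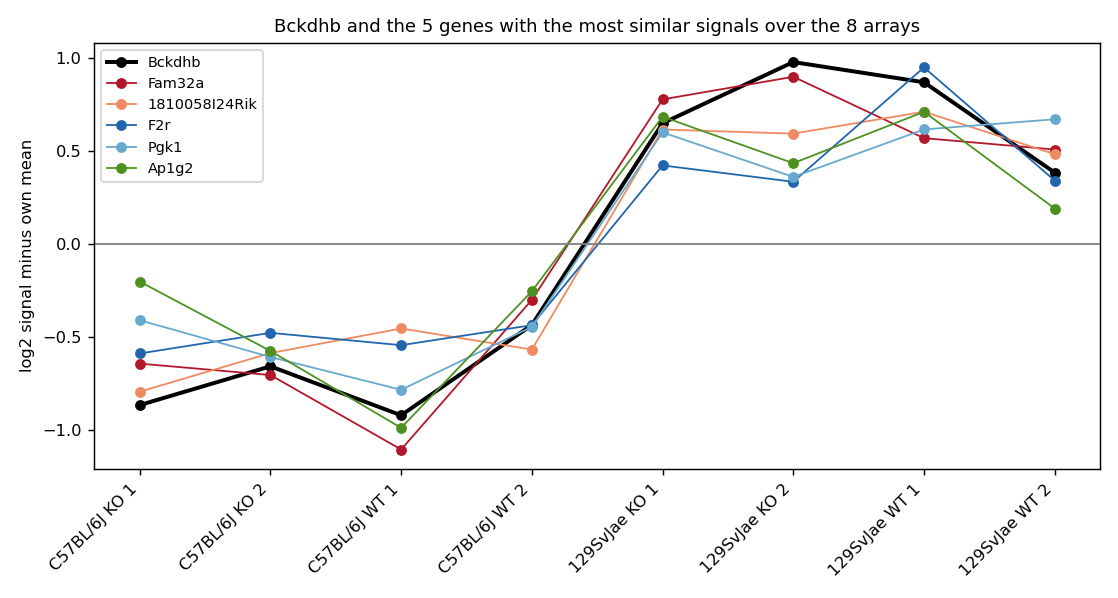
Log2 signal minus the mean of the same probe set over the 8 arrays (y axis) on each array (x axis, by group and replicate) for Bckdhb and the 5 most similar genes. All 6 lie below 0 on the 4 C57BL/6J arrays and above 0 on the 4 129SvJae arrays, which follows from picking the 5 by likeness to Bckdhb.

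The arrays had median signals of 85.2 to 114 and 7637 to 8602 probe sets above 50. Their tissue label was checked with markers. The 8 probe sets of 6 fiber genes, crystallins among them, summed to 166889 to 318785 per array, and none was under 50 on both arrays of any group. Retina marker sums were 267 to 590.4 in C57BL/6J KO and 280.4 to 307 in C57BL/6J WT lenses. In 129SvJae they were 224 to 510.4 in KO and 407 to 941 in WT lenses. Of the 6 retina probe sets, 3, 4, 2 and 1 were under 50 on both arrays of these groups, in that order. The 4 tested retina probe sets were all lower in C57BL/6J WT than in 129SvJae WT lenses (median log2 ratio -1.27). Of the 4, 1 had an unadjusted p under 0.05 by limma in WT lenses and 1 averaged over genotypes. In KO lenses 3 were higher and 1 lower in C57BL/6J (median 0.27). Immune marker sums were 2800.5 to 3583 in C57BL/6J KO, 2256 to 6189 in C57BL/6J WT, 3995 to 4415 in 129SvJae KO and 2141 to 2791 in 129SvJae WT lenses. They came mostly from a single C1qb probe set, at 1927 to 6089, while the other C1qb probe set and both Lyz2 probe sets were under 50 on every array. Over the 8 arrays the sums were 2197 to 3450.2 for lens epithelium, 176 to 674 for erythroid, 207 to 552 for vascular, 189 to 688 for pigment cell and 281 to 563 for muscle markers. The part of these levels in the enzyme signals was not tested. No marker probe set was called between strains by limma, averaged over genotypes or in KO or WT lenses. Over all probe sets tested 0.367%, 0.0893% and 0.0695% were called in these, so nothing is read from the count.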

How the data were processed

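Total RNA of pooled lenses was labelled and hybridised to Affymetrix MG-U74Av2 chips. The deposited intensity values are linear MAS5 signals, made by the authors with Microarray Suite (MAS5 is also named in the submitters' processing notes) and scaled to a mean of 250. Each array was rescaled here to a 2% trimmed mean of 250, signals under 1 were set to 1, and log2 was taken. Of 12422 probe sets that were not controls, 10833 had 1 gene symbol, 396 had several and 1193 had none in the platform annotation. Testing kept the 10078 probe sets that averaged over 50 in 1 or more groups. The 4 group means were fitted with limma 3.58.1 in R 4.3.3 (lmFit, contrasts, eBayes with a variance trend, 4 residual degrees of freedom), with Benjamini-Hochberg adjustment over all probe sets tested and a threshold of 0.05. The 2 arrays per group limit the precision. The fit was also run on simulated signals with known strain changes, drawn independently for each array, so a shared session was not simulated. Its outcome is not given here.

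The enzymes and gene lists were chosen with earlier results of these data known. Named were all 9 enzymes, up to 3 genes of each list with the smallest unadjusted p between strains, genes called in any comparison, Gja3 and the 5 genes most like Bckdhb. Where a gene had several probe sets, the brightest came first. Sequences were read from a RefSeq promoter table. Alternatives were other scalings, offsets, level filters, variance priors and tests, a fit of the compared groups alone, a block for scanning session or replicate number, and each array left out. The session came from the run records: replicate 1 of every group was scanned in session 1, replicate 2 of 129SvJae WT alone in session 3, and the others in session 2. With the session as a block, the array alone in session 3 has no weight in the ratios, so 129SvJae WT rests on 1 array there. Same-numbered arrays deviated together from their group means in all 6 pairs of groups (r of 0.130 to 0.206). Replicate number followed scanning session, so paired samples and a shared session cannot be told apart here. The main fit used no block, and the replicate number was a block only as an alternative. A fluidics communication error was logged for replicate 1 of C57BL/6J WT.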

Additional observations from a re-analysis of the deposited data

Results flagged for a closer look

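The brighter Idh3g probe set was singled out because its KO and WT arrays lay apart in both strains, in opposite directions. In C57BL/6J lenses it had 1073 and 1337 in KO, against 1647 and 1356 in WT (log2 ratio -0.32, SE 0.23). In 129SvJae lenses it had 1315 and 1522 in KO, against 1199 and 1309 in WT (log2 ratio 0.18, SE 0.23). The difference between these effects was -0.50 (SE 0.32) and did not pass the interaction test (adjusted p = 1.0 by limma). The dim Idh3g probe set gave 1.16 (SE 1.31), in the other direction. The gaps between KO and WT arrays of the brighter probe set were narrow. They ran from 1337 to 1356 in C57BL/6J and from 1309 to 1315 in 129SvJae lenses. The share of all probe sets tested with such a pattern was not counted, so nothing is read from it.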

How the results depend on the processing

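The log2 ratio of C57BL/6J over 129SvJae for Bckdhb ran from -1.65 to -1.32 over all alternatives and from -1.56 to -1.32 with an array left out. The counts that follow include Bckdhb, whose strain contrast chose it, and describe the processing only. Between strains averaged over genotypes, the count of enzyme probe sets under the threshold was 1, and 0 with no variance trend and with the methods' t-test on log2 or on linear signals. In KO lenses the count was 0, and 1 with an offset of 16, with only the groups compared and with the scanning session as a block. Leaving out an array gave 0 to 1 there, with 1 without either array of C57BL/6J WT or of 129SvJae WT. In WT lenses the count was 0, and 1 with the session as a block. In each case that probe set was Bckdhb. The pathway lists gave 0 calls, and 1 (Sdhd) with the session as a block. With the replicate number as a block the count averaged over genotypes was 1, and this block changed no call of the enzymes or lists.

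The direction turned for 4 genes with ratios near 0 or wide intervals, none of them called. With an array left out, the ratio ran from -0.72 to 0.45 for Bckdha, from -0.13 to 0.12 for Cs, from -0.073 to 0.086 for Idh3g and from -0.011 to 0.33 for Mdh1. The first array of C57BL/6J KO lenses gave the highest Bckdha and Cs ratio and the lowest Mdh1 ratio when left out. Bckdha gave 0.079 in the methods' t-test on linear signals. Idh3g gave -0.045 with arrays centred on the median and -0.52 as the mean of its probe sets. Apart from the change of probe sets, test or samples that each setting makes, the cause was not tested. The methods' t-test was not run for the interaction. Signals near 50, as for Bcat1 and the dim Idh3g probe set, limit what these arrays can show.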
